A study of Mus musculus with 5 samples.

Results

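Cluster 6 is a class of 629 genomic regions out of 5670 that the authors listed as binding sites of Stat3 or the glucocorticoid receptor (GR) in mouse AtT-20 cells, a pituitary corticotroph line. Its members are the rows to which the deposited list gives the cluster number 6, out of 13 numbers. The study made chromatin immunoprecipitation sequencing (ChIP-seq) libraries of Stat3 after LIF, Stat3 after Dex+LIF, GR after Dex+LIF, GR after Dex, and a control IgG pooled from LIF, Dex+LIF and Dex experiments. Agents were added to the culture medium for 20 min, LIF being the cytokine leukemia inhibitory factor and Dex the synthetic glucocorticoid dexamethasone. The Stat3 libraries used antibodies to Stat3 and to phosphorylated Stat3 together. All 5 libraries came from the same cell line, so every group shares its background, and each was made from 5 pooled ChIPs as 1 library. No untreated group is among the samples used here.

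Stat3 is a transcription factor that cytokine receptors activate through JAK kinases. It then enters the nucleus and binds palindromic DNA elements. GR is a nuclear receptor that moves to the nucleus on binding its hormone, where it can bind its own response element or be held on DNA through another factor. In corticotrophs, which make the ACTH precursor POMC, LIF signalling stimulates Pomc transcription and glucocorticoids repress it as part of the feedback on the stress axis. The title of the series names the comparison of direct with indirect recruitment of these factors to DNA.

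The list has no peak height, enrichment or value per library, so the depth behind each region and the IgG background at it are unknown here. Nothing in it ties the number 6 to Stat3, to GR or to a treatment, and the label could not be checked against binding signal. Each region is a single position on mm9, printed here as listed. Genes, exons, motifs and sequences at these positions were not analysed here, because no genome or annotation of mm9 was used. The class was therefore described by its size, its place on the chromosomes, its spacing and its neighbours. Cluster 3, the largest class, and cluster 5 were set beside it. Regions are not replicates of the experiment, so no p-value is given. Intervals are exact (Clopper-Pearson) 95% binomial intervals that cover counting error only, and they treat neighbouring regions as independent.

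Cluster 6 was the third largest class, at 11.1% of all listed regions (10.3% to 11.9%). Similar in size were clusters 2 and 7, with 1.05 and 0.994 regions for each cluster 6 region. Cluster 3 held 3.92 regions for each cluster 6 region and cluster 5 held 0.599.

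Cluster 6 regions were found on all 20 chromosomes that the list covers. The counts ran from 10 on the X chromosome to 57 on chromosome 2, with a median of 33. Chromosome 11 had 56, chromosome 16 had 50, chromosome 10 had 47 and chromosome 1 had 46. Chromosomes 13 and 14 had 11 each, and chromosome 17 had 13. Per Mb between the first and last listed region, the density was 0.0628 on the X chromosome and 0.529 on chromosome 16, against 0.248 over all chromosomes.

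As a share of the regions on each chromosome, cluster 6 mostly followed the rest of the list. On 18 of 20 chromosomes the interval of this share held the list-wide 11.1%. Chromosome 16 lay above it, with 50 cluster 6 regions among 302 (16.6%, interval 12.5% to 21.2%). Chromosome 13 lay below it, with 11 among 199 (5.53%, interval 2.79% to 9.68%). These were the extremes of 20 chromosomes and no correction for their number was made. The X chromosome and chromosome 12 followed chromosome 16 at 13.7% and 13.1%, and chromosome 17 was next to chromosome 13 at 8.23%. When every group of regions linked at 10 kb was counted once, a cluster 6 region was in 17.9% of the groups and single regions of chromosome 16 (46 of 257) and in 6.11% of those of chromosome 13 (11 of 180), against 12.3% over all chromosomes.

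**Figure D1:**
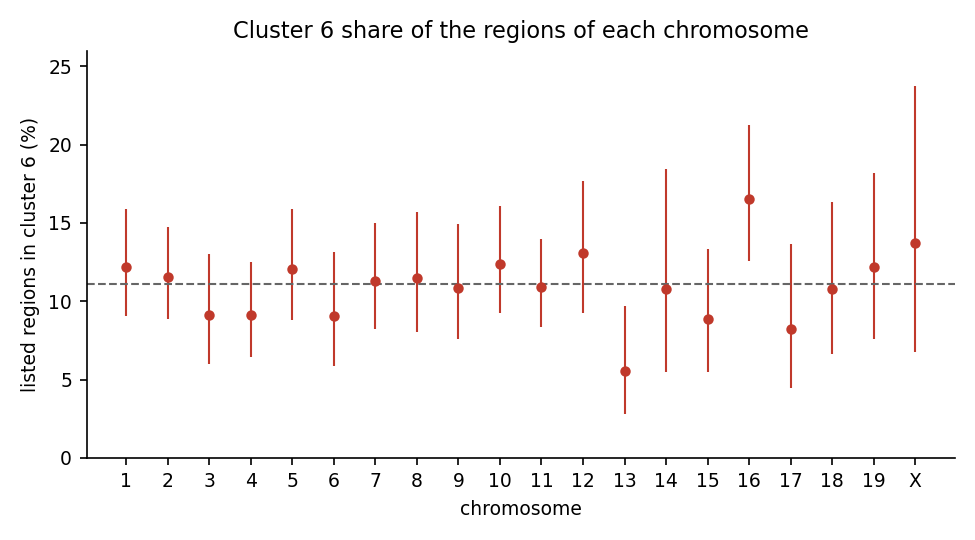
Share of the listed regions of each chromosome that belong to cluster 6 (percent), with exact 95% binomial intervals as bars. The dashed line is the list-wide share of 11.1%, which lies inside the interval of 18 of 20 chromosomes, below that of chromosome 16 and above that of chromosome 13.

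The members on chromosome 16 were unevenly placed along it. With the listed span of the chromosome split into 4 equal parts, the last part held 25 cluster 6 regions among 93 (26.9%, interval 18.2% to 37.1%). The first part held 14 among 113 (12.4%, interval 6.94% to 19.9%) and the second 8 among 63 (12.7%, 5.65% to 23.5%). The third held 3 among 33 (9.09%, 1.92% to 24.3%). The interval of the last part lay above the list-wide 11.1%, while those of the other 3 parts held it. It also overlapped each of those intervals, so a difference between the parts is not settled. Chromosomes 16 and 13 alone were split, and they were the extremes of the list. On chromosome 13 the 4 parts held 2 of 35, 7 of 75, 1 of 20 and 1 of 69. Copy number of the chromosomes in AtT-20 cells was not used here, and its part in these counts was not tested.

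Cluster 6 regions lay closer to other listed regions than most of the list did. The median distance from a cluster 6 region to the nearest region of any class was 19.06 kb (quartiles 2.885 kb and 91.7 kb). It was 50.6 kb in cluster 3 (10.2 kb and 159 kb), 12.85 kb in cluster 5 (1.51 kb and 61.8 kb) and 42.9 kb over all rows outside cluster 6 (7.445 kb and 148 kb). Cluster 6 was thus between cluster 5 and cluster 3, and nearer to cluster 5.

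**Figure D2:**
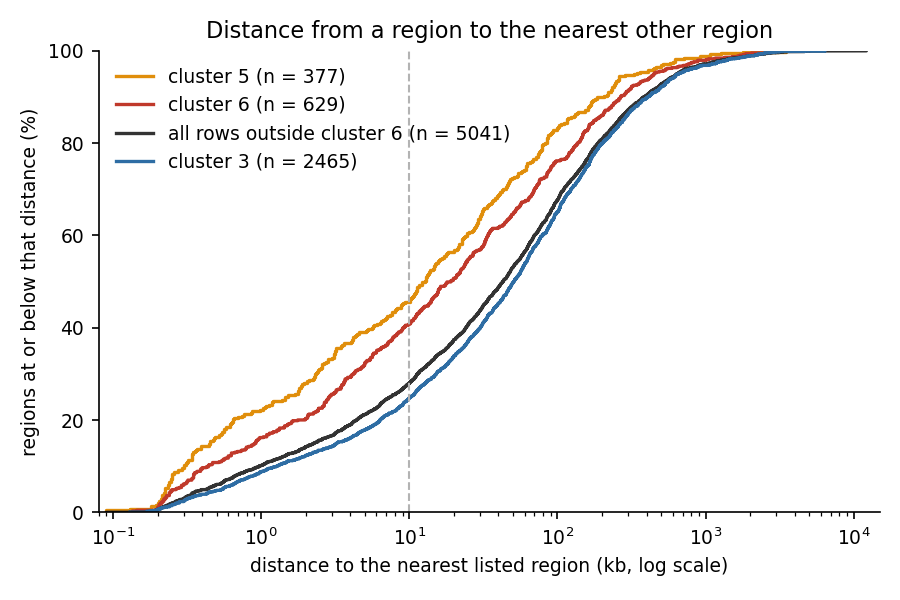
Cumulative share of regions (percent) by the distance to the nearest other listed region (kb, log scale), for cluster 5, cluster 6, all rows outside cluster 6 and cluster 3, with the dashed line at 10 kb. At 10 kb the curves stand at 45.6%, 40.9%, 28.0% and 24.8%, and the order of the curves is the same at 1 kb and at 100 kb.

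At 10 kb, 257 of 629 cluster 6 regions (40.9%, interval 37.0% to 44.8%) had another listed region, against 28.0% of the rows outside the class and 29.5% of all regions. The gap was seen from 1 kb to 100 kb, and not at 1000 kb, where 97.9% of cluster 6 regions and 97.2% of the rows outside it had a neighbour and the intervals overlapped. Within 1 kb, 16.2% of cluster 6 regions had a neighbour (interval 13.4% to 19.3%), against 10.2% of the rows outside it, 8.84% of cluster 3 and 22.3% of cluster 5. Within 100 kb the shares were 76.2%, 67.7%, 65.1% and 83.3% in the same order. The intervals of cluster 6 and of the rows outside it did not overlap at 1, 5, 10, 50 or 100 kb. Those of cluster 6 and cluster 5 overlapped at all 5 distances.

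The share with a neighbour varied among the chromosomes. Of the 11 chromosomes with 30 or more cluster 6 regions, chromosome 11 had the highest share, 36 of 56 regions (64.3%, interval 50.4% to 76.6%). Chromosome 10 had 26 of 47 (55.3%) and chromosome 12 had 19 of 35 (54.3%). Chromosome 16, which carried the most members for its length, had the lowest share of the 11, 14 of 50 (28.0%, interval 16.2% to 42.5%). This lowest share was the same as the 28.0% of all rows outside cluster 6 over the whole list. The share for the other rows of each chromosome is not given here, so these values may follow the density of all regions there, which was not tested.

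Members were mostly far from other members. The median distance from a cluster 6 region to the nearest other cluster 6 region was 501 kb (quartiles 50.3 kb and 1768 kb). In cluster 5, with fewer regions, the same distance within the class was 687 kb (68.7 kb and 2733 kb), and in cluster 3, with more regions, it was 129 kb (33.02 kb and 397 kb). These distances depend on the number of regions in a class and were not compared further.

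The neighbours of cluster 6 regions were drawn unevenly from the other classes. There were 340 pairs within 10 kb with at least 1 cluster 6 region. Counted from each cluster 6 region in turn, they gave 391 neighbours. Cluster 6 itself supplied 102 of these (26.1%, interval 21.8% to 30.7%), against 11.1% of the list. These 102 came from 51 pairs counted from both members, so this interval is narrower than the number of pairs allows. Cluster 5 supplied 61 (15.6%, interval 12.1% to 19.6%), against 6.65% of the list. Cluster 3 supplied 71 (18.2%, interval 14.5% to 22.3%), against 43.5% of the list. The ratio of the share among neighbours to the share of the list was 2.35 for clusters 6 and 5 alike and 0.418 for cluster 3. These ratios do not allow for crowding, since a class whose regions often have neighbours supplies more of them than its size implies. A listed region lay within 10 kb of 45.6% of cluster 5, 40.9% of cluster 6 and 24.8% of cluster 3 regions. How much of the ratios follows from this was not tested.

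The other classes fell between these values, or rested on few regions. Cluster 7 supplied 44 neighbours and cluster 2 supplied 41, with ratios of 1.02 and 0.904, so that both were about as frequent beside cluster 6 as in the list. Cluster 4 supplied 28, with a ratio of 1.22. Clusters 11 and 12 supplied 16 and 11, with ratios of 1.80 and 2.70. Cluster 1, with 198 regions in the list, supplied 3, a ratio of 0.220. Clusters 8, 9 and 10 supplied 2 each and cluster 13 supplied 8.

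The same count from the side of clusters 5 and 3 gave other proportions. Among the 278 neighbours of cluster 5 regions, 61 were in cluster 6 (21.9%, interval 17.2% to 27.3%), 58 in cluster 5 (20.9%) and 66 in cluster 3 (23.7%). Against list shares of 11.1%, 6.65% and 43.5%, the ratios were 1.98, 3.14 and 0.546. The ratio of cluster 5 among its own neighbours was thus above the 2.35 of cluster 6 among its own. Among the 912 neighbours of cluster 3 regions, 71 were in cluster 6 (7.79%, interval 6.13% to 9.72%) and 492 in cluster 3 itself (53.9%, interval 50.6% to 57.2%). Cluster 3 was thus below its share of the list among the neighbours of both clusters 5 and 6. Among the neighbours of cluster 3 the ratios were 1.24 for cluster 3, 1.09 for cluster 5 and 0.702 for cluster 6. Most cluster 3 regions had no neighbour, since 612 of 2465 (24.8%) had a listed region within 10 kb. The difference between clusters 5 and 6 was not tested. The pairs that join 2 of these classes enter both counts. Pairs within a class count from both of their regions, so the interval of cluster 3 among its own neighbours is too narrow.

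As a share of each class, 55 of 377 cluster 5 regions (14.6%, interval 11.2% to 18.6%) had a cluster 6 region within 10 kb. In turn, 52 of 629 cluster 6 regions (8.27%, interval 6.24% to 10.7%) had a cluster 5 region that close. In cluster 3, 67 of 2465 regions (2.72%, interval 2.11% to 3.44%) had a cluster 6 region within 10 kb, and 66 of 629 cluster 6 regions (10.5%, interval 8.21% to 13.2%) had a cluster 3 region. Within cluster 6, 80 regions (12.7%, interval 10.2% to 15.6%) had another member within 10 kb. Over all rows outside cluster 6 the share with a cluster 6 region was 5.18% (261 of 5041, interval 4.58% to 5.83%). Cluster 5 lay above that value and cluster 3 below it.

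**Figure D3:**
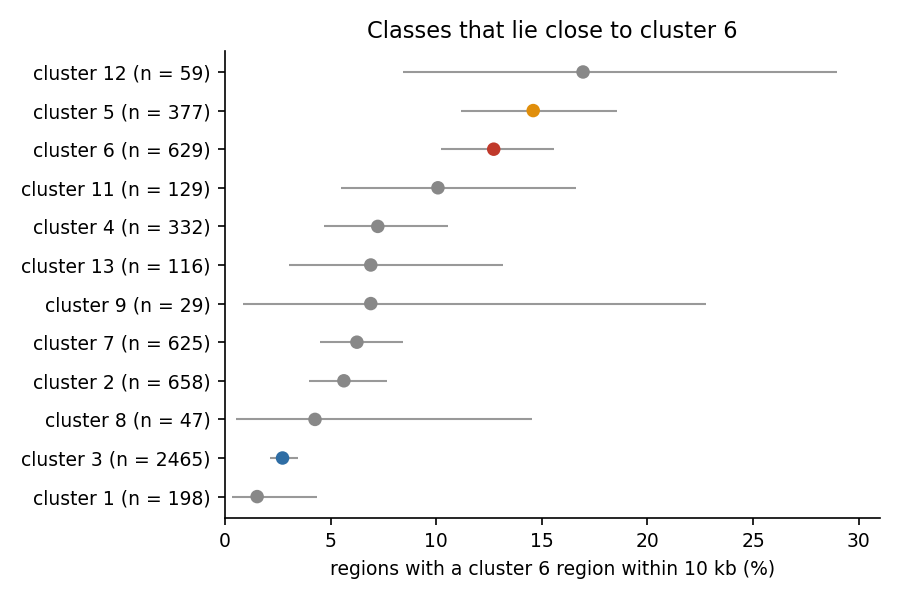
Share of the regions of each class that have a cluster 6 region (for cluster 6, another member) within 10 kb, in percent, with exact 95% binomial intervals as bars and the number of regions in brackets. Cluster 5 stands at 14.6% and cluster 6 at 12.7%, and cluster 3 at 2.72%. Cluster 10, with 6 regions, is left out.

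Cluster 12 had the highest share with a cluster 6 region among the classes of more than 6 regions, 10 of 59 (16.9%), but its interval ran from 8.44% to 29.0% and held the value of cluster 5. Cluster 11 had 13 of 129 (10.1%, interval 5.48% to 16.6%). Cluster 4 had 24 of 332 (7.23%), cluster 7 had 39 of 625 (6.24%) and cluster 2 had 37 of 658 (5.62%), all with intervals that held 5.18%. In cluster 1 it was 3 of 198 regions (1.52%, interval 0.314% to 4.36%).

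Most members with a neighbour had it in clusters 3, 5 or 6, which also make up most of the list. The remaining classes hold 38.8% of the list, so this majority is not particular to the members. A region of cluster 5 or 6 was within 10 kb of 125 members (19.9%, interval 16.8% to 23.2%). A cluster 5 region was within that distance of 52 members, another cluster 6 region of 80, and both of 7 (1.11%). No expected count was computed, so 7 cannot be read as high or low. A further 50 members (7.95%) had a cluster 3 region but none of clusters 5 or 6, and 82 (13.04%) had only regions of the remaining classes. The other 372 members (59.1%) had no listed region within 10 kb.

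By median distance, cluster 5 neighbours were the closest of the 3 classes. The median distance between a cluster 6 and a cluster 5 region, over the 61 pairs within 10 kb, was 1.765 kb, and 27 of these pairs (44.3%, interval 31.5% to 57.6%) were within 1 kb. For the 71 pairs with cluster 3 the median was 3.83 kb, with 17 (23.9%, interval 14.6% to 35.5%) within 1 kb. For the 51 pairs of 2 members it was 2.755 kb, with 13 (25.5%, interval 14.3% to 39.6%) within 1 kb. The intervals of these shares overlapped. The 11 pairs with cluster 12 had a median of 0.730 kb, and 6 of them were within 1 kb.

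By distance, the neighbours of cluster 6 moved towards the makeup of the whole list. Up to 1 kb from a member, 25.5% of 106 neighbours were in cluster 5 (interval 17.5% to 34.9%), 24.5% in cluster 6 and 16.04% in cluster 3. At 1 to 10 kb, 11.9% of 285 neighbours were in cluster 5 (interval 8.40% to 16.3%), so its share was lower than in the nearest kilobase, whereas cluster 6 held 26.7%. At 10 to 50 kb, cluster 5 had 14.1% of 595 neighbours, cluster 6 had 22.2% and cluster 3 had 25.5% (interval 22.1% to 29.3%). Clusters 5 and 6 were thus still above their shares of the list, and cluster 3 below, at 10 to 50 kb.

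At 50 to 100 kb the shares were 8.08% for cluster 5, 14.4% for cluster 6 (interval 11.3% to 18.0%) and 37.8% for cluster 3 (interval 33.3% to 42.4%), over 458 neighbours. At 100 to 500 kb, with 2735 neighbours, they were 7.57%, 13.2% and 40.7%, all within 1.2 times the list-wide values of 6.65%, 11.1% and 43.5% in either direction. A region can be the neighbour of several members, and a pair of members counts from both sides, so these neighbours are not independent.

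**Figure D4:**
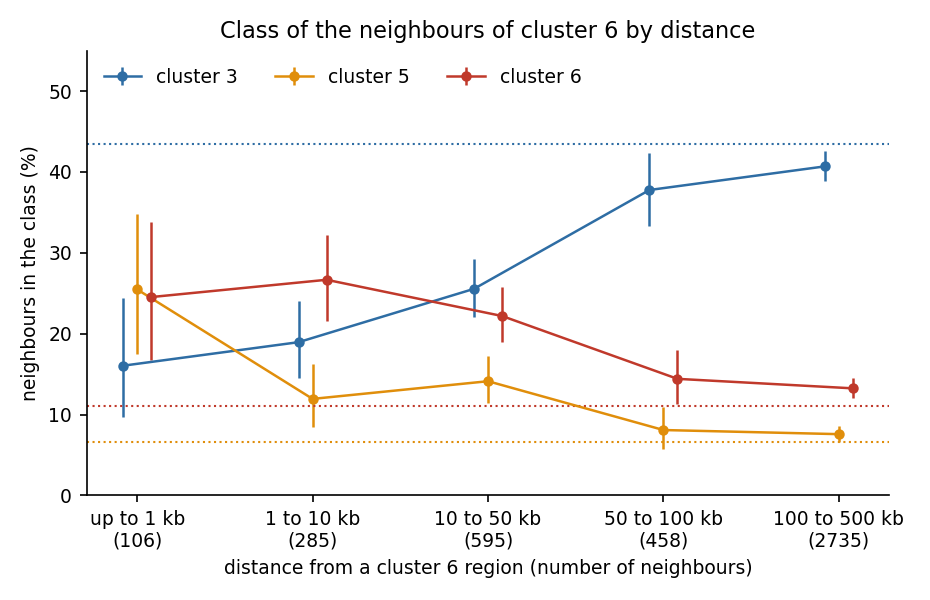
Share of the neighbours of cluster 6 regions that belong to clusters 3, 5 and 6 (percent), in 5 ranges of distance, with exact 95% binomial intervals and the number of neighbours in brackets. Dotted lines give the shares of the list (43.5%, 6.65% and 11.1%). Pairs of members count from both sides, which makes the intervals of cluster 6 too narrow. Cluster 3 goes from 16.04% in the nearest kilobase to 40.7% at 100 to 500 kb, and cluster 5 from 25.5% to 7.57%.

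The closest regions to cluster 6 members lay well within a kilobase. In all, 33 of the 340 pairs (9.71%) were at most 0.3 kb apart. Of these, 9 were with cluster 5, 6 were between members, 2 were with cluster 3 and the rest were with other classes. They made up 14.8% of the pairs with cluster 5 within 10 kb, 11.8% of those between members and 2.82% of those with cluster 3. The closest pair of members lay on chromosome 16 at positions 78428215 and 78428350 (mm9), 135 bp apart. The next were on chromosome 10 at 80457530 and 80457735, on chromosome 4 at 138943175 and 138943395, on chromosome 10 at 93228950 and 93229180 and on chromosome 3 at 31943705 and 31943945, with gaps from 205 bp to 240.0 bp. The closest cluster 5 neighbour was on chromosome 12, where a cluster 5 region at 3947835 and a cluster 6 region at 3948030 were 195 bp apart. A cluster 4 region and a cluster 6 region on chromosome 7, at 80331490 and 80331635, were 145 bp apart. At such distances the authors' list keeps 2 positions and can give them different cluster numbers.

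When regions were linked into groups at gaps of up to 10 kb, cluster 6 members occurred in 208 of the 710 groups of 2 or more regions (29.3%). A group has several regions and so is likelier to hold a given class than a single region is. The 29.3% can therefore not be set against the 11.1% of the list. Of the 208 groups, 132 had 2 regions, 50 had 3, 17 had 4, and 9 had 5 to 7. A single member was present in 167 groups, and 41 groups had 2 or more members. In 23 groups, with 49 members, all regions were in cluster 6. Cluster 3 was present in 65 of the 208 groups and cluster 5 in 47, and 12 groups had both. How many of all 710 groups held cluster 3 or cluster 5 is not given here, so neither count can be read as high or low. Groups with neither cluster 3 nor cluster 5 numbered 108, the 23 of cluster 6 alone included.

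Only 5 groups had 3 or more members. On chromosome 10, between 59432645 and 59454095, 6 regions over 21.45 kb followed each other in the order cluster 6, cluster 5, cluster 6, cluster 6, cluster 5, cluster 6. On chromosome 11, between 103662435 and 103670015, 4 members were followed by a cluster 4 region, all within 7.58 kb. On chromosome 1, between 135954150 and 135963780, all 4 regions were in cluster 6 over 9.63 kb. The remaining groups were both on chromosome 16, with 3 members and a cluster 2 region between 78428215 and 78443755 and with 3 members between 97621775 and 97623515. No cluster 3 region was in any of these 5 groups. They were picked for their members and hold few other regions, so this absence says little about cluster 3.

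**Figure D5:**
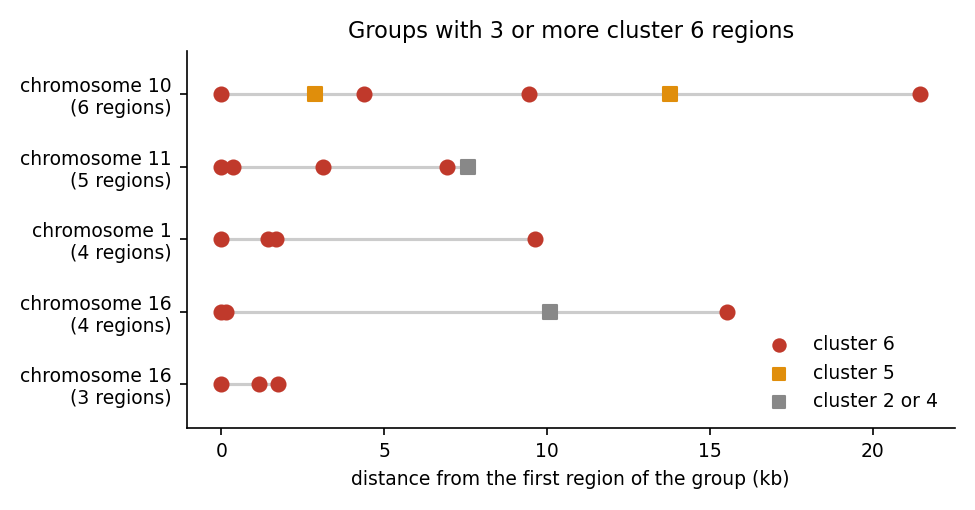
The 5 groups of regions, linked at 10 kb, that hold 3 or more cluster 6 regions. Each point is a region at its distance (kb) from the first region of its group, with circles for cluster 6 and squares for other classes. The group on chromosome 10 has 4 members and 2 cluster 5 regions over 21.45 kb, and the last group on chromosome 16 has 3 members within 1.74 kb.

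In the largest groups with a member, cluster 6 was usually a minority. The class makes up 11.1% of the list, so this does not make it scarce there, and each group was picked for holding a member. The largest group with a member had 7 regions, on chromosome 10 between 59366145 and 59384155, with 1 region each of clusters 3, 2, 7, 12, 4, 6 and 5 in that order. A group of 6 on chromosome 11, between 86387485 and 86412295, had 2 members, the first region and the next to last, with 2 cluster 3 regions, 1 cluster 4 region and 1 cluster 5 region. A group of 6 on chromosome 2, between 167642700 and 167660265, had 1 member, with 3 cluster 4 regions.

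Windows of at most 100 kb were cut at their first and last member, so regions just outside them are not counted. The window with the most members was on chromosome 10, with 6 cluster 6 regions, 3 cluster 5 regions and 1 cluster 7 region between 59383815 and 59454095. Just before it lay regions of clusters 3, 2, 7, 12 and 4 in that order, the cluster 3 region being the farthest, at 59366145. The window of chromosome 12 between 103770565 and 103866615 held 5 members among 9 regions. A window had 4 members in 6 places. Of these, the window on chromosome 2 between 167603090 and 167686175 had 10 regions in all and that on chromosome 11 between 5852685 and 5919015 had 6. In the other 4, every region from the first to the last member was in cluster 6, and the shortest of them was on chromosome 11 between 103662435 and 103669350, with the cluster 4 region of its group just past its end. With windows taken without overlap over the whole list, 451 of the 629 members were alone in theirs and 122 were in windows with 2 members. Windows with 3 or more members were thus few. The same count is not given here for other classes, so it does not set cluster 6 apart from them.

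At the other end, 150 members (23.8%) had no listed region within 100 kb, against 32.3% of the rows outside the class. None lay within 1 Mb of 13 members (2.07%), a share near the 2.84% of the rows outside the class. The most isolated was at 143163230 on the X chromosome, 3.18 Mb from the nearest region. It was followed by members at 70736535 on chromosome 14 (2.94 Mb) and at 11744670 on chromosome 11 (2.71 Mb), the chromosome with the highest share of members that had neighbours.

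The rows of cluster 6 follow an order in the list that is not the order of the genome and that the sources used here do not explain. Split by this order into 4 parts of 157 or 158 members, the share with a neighbour within 10 kb was 42.4%, 40.8%, 36.3% and 43.9%. The intervals of all 4 overlapped. The list omits 204 region numbers, and 35 members (5.56%, interval 3.91% to 7.65%) had a number directly beside an omitted number, as had 5.85% of the rows outside the class. The interval for the members held the value of the rows outside the class.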

How the data were processed

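Libraries of 36 bp reads were processed by the authors with Bowtie, MACS 1.3.7.1 and the build mm9, per the submitters' processing notes. The Bowtie version, the peak thresholds, the role of IgG and the methods of merging and clustering were not given in the sources used here. Each row of the deposited list gives a position and a cluster number, a class that is neither a count nor a signal. All 5670 rows have equal start and end, and positions are multiples of 5 bp. Depth per library is unknown here.

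Distances, neighbours within 10 kb, groups linked at 10 kb and windows of 100 kb were computed with Python 3.11.15, numpy 2.4.6, pandas 2.3.3 and scipy 1.17.1, and the code was tested on simulated data. Named places are the closest pairs of members and the 5 windows with the most members, where ties (6 windows with 4 members) were broken by the most regions and then the shortest span; other named places were chosen after their values were seen. With 1 library per condition, nothing was compared between treatments. Members, lists and distances were chosen with earlier results of these data known. Distances to gene starts and motifs were planned and not run, since they need a genome and annotation of mm9.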

Additional observations from a re-analysis of the deposited data

How the results depend on the processing

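The share of members with a neighbour was 40.9% at 10 kb. It depends on the distance by construction, with 16.2% when neighbours were sought within 1 kb and 32.1% within 5 kb, but 64.5% within 50 kb and 76.2% within 100 kb. Cluster 6 stayed above the rows outside it in all 7 alternatives, by 6.04 to 12.8 percentage points. Merging same-cluster regions within 1 kb gave 38.5%, and leaving out the 5 richest windows gave 38.8%. Leaving out regions beside an omitted number, an alternative chosen after seeing the data, gave 41.4%. Cluster 3 supplied 22.6% of neighbours within 50 kb and 27.4% within 100 kb (18.2% at 10 kb). Cluster 5 supplied 25.5% within 1 kb and 11.9% with pairs within 1 kb left out (15.6%), and cluster 6 supplied 20.8% within 100 kb (26.1%). All these shares stayed on the same side of the list-wide share. The fullest window held 5 members at 50 kb and 7 at 200 kb, and groups with members numbered 169 linked at 5 kb and 310.0 at 50 kb. No paired analysis was possible because there is a single library per group and no measured value for any of them. Alternatives on gene distance and motif windows were not run. Unknown depth limits every count of regions.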
